A study of Mus musculus with 14 samples.

Results

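The subject is the nuclear genes whose symbols mark them as parts of the oxidative phosphorylation machinery, the respiratory chain and ATP synthase of the inner mitochondrial membrane. They were taken by symbol alone: every gene starting with Nduf, Uqcr or Atp5, or with Cox4 through Cox8, together with Sdha, Sdhb, Sdhc, Sdhd and Cyc1, on probes annotated to exactly 1 gene. Cox6a2 and pseudogenes were left out, and where a gene had several probes the one with the highest mean was used. This gave 87 of the 22180 genes on the array, from 96 probes. Of these, 72 encode subunits of complexes I to V, 8 are complex I assembly factors and 7 are isoforms known mainly from particular tissues. The filter on dim probes kept 83 of the 87, and the other 4 were the tissue-restricted isoforms Cox7a1, Cox7b2, Cox8b and Cox8c.

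The cells were bone marrow cells sorted as Sca1+ and cKit- from female NCR-NU mice, an athymic nude strain that lacks a normal thymus and so most conventional T cells. The 4 groups were old tumor-bearing (n = 3), old cancer-free (n = 5), young tumor-bearing (n = 3) and young cancer-free (n = 3), where cancer-free hosts carried a Matrigel control and tumor-bearing hosts a primary tumor of matched size. The labels give age only as old or young and do not name the kind of tumor. Each array held 1 biological replicate, amplified from 500 pg of total RNA, and precision is limited by how few arrays there are. Levels are on the log2 scale of the deposited table, in which 1 unit is a doubling. Of the genes that define the sort, Kit lay between 5.25 and 7.03. The median of the whole table was 3.88 and its 75th percentile 5.48, so these levels do not show Kit to be absent. Ptprc, the gene of the blood cell antigen CD45, lay between 10.53 and 11.36. Sca1 itself (gene Ly6a) was not analysed here.

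Complex I takes electrons from NADH, complex II from succinate, and both pass them through ubiquinone to complex III, cytochrome c and complex IV, where oxygen is reduced. Complexes I, III and IV pump protons, and complex V, the ATP synthase, uses the proton gradient to make ATP. A few of the most hydrophobic subunits are encoded in mitochondrial DNA and all others in the nucleus, so nuclear transcripts for subunits of each complex must be made in parallel. In blood-forming tissue, quiescent stem cells are known to rely more on glycolysis, while cells that divide or differentiate use more oxidative phosphorylation. The array carried probes for 0 of the 13 mitochondrially encoded subunits under their symbols, and these were not analysed here.

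Many nuclear genes of the machinery are known to share promoter motifs for the factors NRF1, ETS (which includes GABP) and YY1. RefSeq promoter windows of the mouse build GRCm38.p6, 250 bases before to 50 after each gene's start, were found for 72 of the 87 genes. The NRF1 motif, a palindrome-like run rich in G and C with 1 free base, and the letters CCGGAAG (ETS) and AANATGGC (YY1) were searched on both strands, and no gene of the 72 had matches of different motifs that overlapped. The NRF1 motif was in the windows of 17 of 72 genes (23.6%), against 5.19% of all 27025 genes with a window. The ETS letters were in 19 (26.4%), against 9.93% of all genes, and the YY1 letters in 18 (25.0%), against 6.96%. At least 1 of the 3 was found in 47 (65.3%), against 19.4% of all genes. Among 15 complex V genes with a window, NRF1 and ETS matches were in 6 each, and among 24 accessory genes of complex I the YY1 letters were in 9. Other sets had few: in complex IV, NRF1 and YY1 matches were in 1 of 10 genes each. NRF1 was in 0 of 5 core genes of complex I, and YY1 in 0 of 3 genes of complex II and 0 of 4 of complex III. A match is a description of the letters and not of binding. The windows below belong to the 5 genes whose difference between old and young cancer-free mice had an unadjusted p under 0.05 (1 gene under either other scaling), and their exact matches are not all to the same motif. Near matches were not searched. Capitals mark the matches: NRF1 in Ndufa11 (chr17:56717512-56717811, + strand) and in Atp5g3 (chr2:73911277-73911576, - strand), 2 ETS matches in Cox8a (chr19:7217567-7217866, - strand), YY1 in Ndufb8 (chr19:44555393-44555692, - strand), and none of the 3 in Cox5b (chr1:36691237-36691536, + strand).
Ndufa11: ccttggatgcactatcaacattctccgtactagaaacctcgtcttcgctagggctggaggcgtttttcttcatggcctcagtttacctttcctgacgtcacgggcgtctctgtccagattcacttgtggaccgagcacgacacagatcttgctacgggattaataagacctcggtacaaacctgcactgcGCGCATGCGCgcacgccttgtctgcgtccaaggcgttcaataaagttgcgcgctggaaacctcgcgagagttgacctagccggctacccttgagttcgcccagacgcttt
Atp5g3: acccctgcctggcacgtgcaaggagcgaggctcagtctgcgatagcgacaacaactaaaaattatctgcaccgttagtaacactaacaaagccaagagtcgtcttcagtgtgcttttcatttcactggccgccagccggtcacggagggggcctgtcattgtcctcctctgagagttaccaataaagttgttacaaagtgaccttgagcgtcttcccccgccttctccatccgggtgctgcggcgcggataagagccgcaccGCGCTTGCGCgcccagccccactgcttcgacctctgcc
Cox5b: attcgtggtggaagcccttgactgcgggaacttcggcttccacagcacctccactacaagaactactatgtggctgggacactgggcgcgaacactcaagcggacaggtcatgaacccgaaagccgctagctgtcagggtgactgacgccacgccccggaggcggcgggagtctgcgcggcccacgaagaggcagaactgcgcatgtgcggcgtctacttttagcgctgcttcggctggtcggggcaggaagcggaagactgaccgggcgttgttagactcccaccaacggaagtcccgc
Cox8a: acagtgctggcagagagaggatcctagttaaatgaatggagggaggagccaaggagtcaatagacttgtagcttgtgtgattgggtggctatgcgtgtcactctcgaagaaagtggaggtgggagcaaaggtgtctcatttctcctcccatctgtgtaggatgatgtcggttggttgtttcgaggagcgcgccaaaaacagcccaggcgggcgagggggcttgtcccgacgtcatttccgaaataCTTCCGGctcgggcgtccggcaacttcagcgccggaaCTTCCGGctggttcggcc
Ndufb8: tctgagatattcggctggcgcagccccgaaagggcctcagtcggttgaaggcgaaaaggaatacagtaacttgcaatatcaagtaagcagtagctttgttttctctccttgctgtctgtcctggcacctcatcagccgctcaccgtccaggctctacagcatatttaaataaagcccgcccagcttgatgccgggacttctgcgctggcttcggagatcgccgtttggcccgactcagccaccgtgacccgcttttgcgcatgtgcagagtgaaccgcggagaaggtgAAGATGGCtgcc

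Individual arrays stood apart within their groups, and this bears on each result. Averaged over the 72 subunit genes, the level was 8.06, 8.13 and 8.20 in the 3 old tumor-bearing mice. It was 8.13, 8.14, 8.16, 7.77 and 7.74 in the 5 old cancer-free mice, so that replicates 4 and 5 lay below the other 3. It was 7.50, 8.24 and 8.26 in young tumor-bearing mice and 8.31, 8.30 and 8.20 in young cancer-free mice. Young tumor-bearing replicate 1 had the lowest level of all 14 arrays for 37 of the 83 tested genes. Its mean correlation with the other arrays, over the 13805 genes past the filter, was also the lowest (0.899, against up to 0.942). Several of the results rest on that array and are given also without it. Neutrophil markers differed on these arrays too, but in opposite directions. Their mean level was high in young tumor-bearing replicate 1, at 7.33, against 6.33 and 6.25 in the other young tumor-bearing mice. It was low in old cancer-free replicates 4 and 5, at 5.72 and 5.39, against 7.37, 6.90 and 6.15 in replicates 1 to 3. Old cancer-free replicate 1, the highest at 7.37, had a subunit mean of 8.13. The part of neutrophils in the low subunit levels was not tested. In these sorted populations fewer cells of a type and less RNA per cell cannot be told apart.

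By complex, the level of complex IV averaged 9.32 ± 0.11 in old tumor-bearing mice (SD, n = 3), 9.14 ± 0.20 in old cancer-free mice (n = 5), 9.16 ± 0.46 in young tumor-bearing mice (n = 3) and 9.49 ± 0.06 in young cancer-free mice (n = 3). For complex V the means were 8.50 ± 0.06 in old tumor-bearing, 8.45 ± 0.23 in old cancer-free, 8.41 ± 0.41 in young tumor-bearing and 8.73 ± 0.01 in young cancer-free mice. For complex III they were 7.83 ± 0.02 in old tumor-bearing, 7.68 ± 0.30 in old cancer-free, 7.76 ± 0.56 in young tumor-bearing and 8.0 ± 0.07 in young cancer-free mice. The young cancer-free mean was the highest of the 4 in each of these complexes, and the SD of young tumor-bearing mice was the largest. For complex I, the accessory genes averaged 7.89 ± 0.03 in old tumor-bearing, 7.70 ± 0.22 in old cancer-free, 7.73 ± 0.46 in young tumor-bearing and 7.96 ± 0.10 in young cancer-free mice. The core genes averaged 6.86 ± 0.20 in old tumor-bearing, 6.69 ± 0.14 in old cancer-free, 6.70 ± 0.24 in young tumor-bearing and 6.92 ± 0.19 in young cancer-free mice. For complex II the means were 7.37 ± 0.27 in old tumor-bearing, 7.32 ± 0.31 in old cancer-free, 7.18 ± 0.36 in young tumor-bearing and 7.57 ± 0.15 in young cancer-free mice. In the complex I core and complex II most SDs were close in size to the differences between the means.

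**Figure D1:**
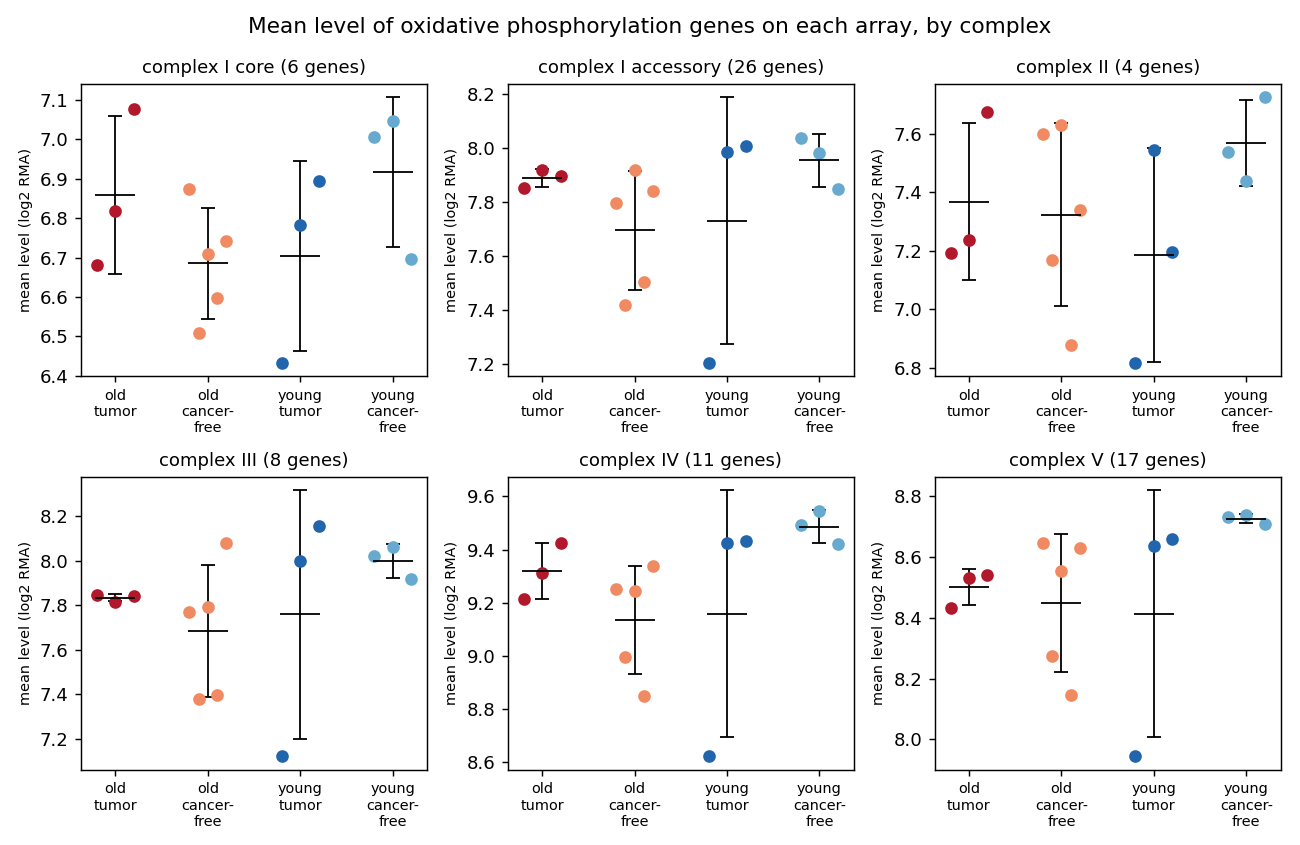
Mean log2 level (y axis) of the tested subunit genes of each complex on each array, with 1 point per mouse, by group (x axis), and bars for the group mean ± SD. Young tumor-bearing replicate 1 is the lowest point of its group in each panel, at 7.50 over all 72 subunit genes, and old cancer-free replicates 4 and 5 lie at 7.77 and 7.74.

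**Figure D2:**
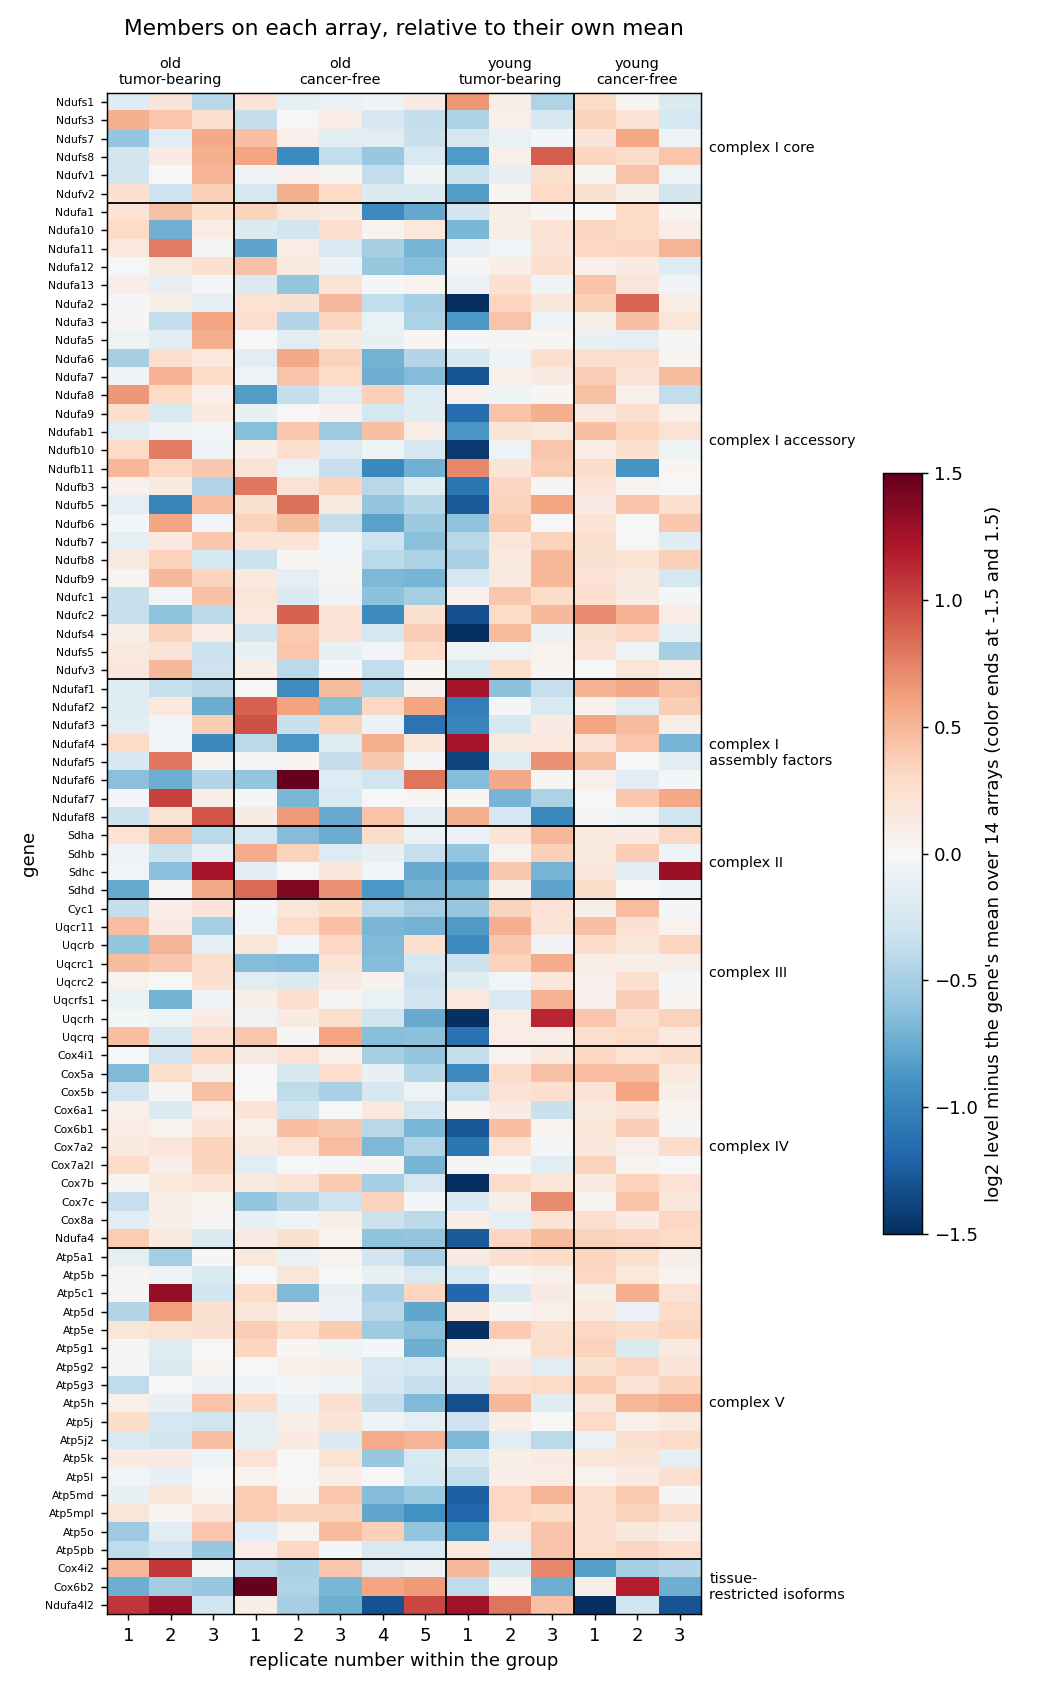
Each of the 83 tested genes (rows, by complex) on each of the 14 arrays (columns, by group and replicate number), colored by its log2 level minus its own mean over the arrays. The column of young tumor-bearing replicate 1 is blue over most rows, with 37 genes at their lowest there, and blue is also frequent in old cancer-free replicates 4 and 5.

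The first question is how the genes differ with age in hosts without a tumor. In old cancer-free mice (n = 5), nearly every subunit gene lay below young cancer-free mice (n = 3) on average, by small amounts, and no single gene passed the test. Of the 83 genes, 0 were called at an adjusted p under 0.05 in limma, fitted over all 13805 genes past the filter, of which 0% were called. The differences were negative for 71 of 83 (85.5%), against 55.5% of all genes tested, with a median log2 difference of -0.26 against -0.04 over all genes. At an unadjusted p under 0.05, 5 genes were lower (6.02%) and 0 higher, against 5.17% and 2.48% of all genes, so the share of genes at this threshold was near the background. Over all genes the split was 714 lower and 343 higher, and it was 428 and 456 under cyclic loess and 328 and 806 under median centring. The 2 groups did not overlap for 9 genes that were lower (10.8%, against 4.4% of all genes) and 0 that were higher (background 2.9%). They were Ndufa9, Ndufa11 and Ndufb8 of complex I, Cox4i1, Cox5b, Cox8a and Ndufa4 of complex IV, and Atp5g2 and Atp5g3 of complex V.

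By complex, the genes of complex IV, cytochrome c oxidase, had the most negative median, -0.38, with all 11 differences negative between -0.54 and -0.17. In complex III all 8 differences were negative, with a median of -0.28. In complex V 16 of 17 were negative (median -0.30). In complex I, 5 of 6 core genes (median -0.24) and 23 of 26 accessory genes (median -0.28) were negative, and in complex II 3 of 4 (median -0.29). The 8 assembly factors, which are needed to build complex I but are not part of it, had a median of -0.10 with 5 negative. Under cyclic loess and under median centring of each array the median over the 83 genes was -0.15 in both cases. Median centring moved the median of all genes to 0.07, and 67 of 83 genes were negative under it, against 41.1% of all genes; 65 were negative under loess, against 49.4% of all genes. All 11 genes of complex IV and all 8 of complex III were negative under both scalings, while complex II split 2 and 2.

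Bright genes in general were lower in old cancer-free mice on this array. Among all 877 genes with a mean level of 8 to 10, 73.1% had a negative difference (median -0.16), beside 28 of 29 genes of the machinery in that range (median -0.30). Among 3594 genes at 6 to 8, 70.3% were negative (median -0.15), beside 21 of 26 (median -0.24). At a level of 10 and over, 71.2% of 236 genes were negative (median -0.10), beside 11 of 11 (median -0.31). Below 6, where most tested genes lie, 47.5% of 9098 genes were negative (median 0.02), beside 11 of 17 (median -0.15). The shares over all tested genes thus rest mainly on genes dimmer than most of the machinery.

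Ndufa11, an accessory subunit in the membrane arm of complex I, had the smallest p. Its level was 8.39, 9.29, 8.95, 8.68 and 8.48 in old cancer-free mice, against 9.49, 9.50 and 9.69 in young cancer-free mice. The groups did not overlap, and the log2 difference was -0.80 ± 0.23 (SE; 0.575-fold, adjusted p = 0.522 in limma). Its dimmer second probe differed by -0.38 in the same direction. Atp5g3, which encodes the c subunit of the rotating membrane ring of ATP synthase, was at 8.10, 8.13, 8.10, 7.92 and 7.82 in old cancer-free mice, against 8.54, 8.38 and 8.49 in young cancer-free mice (difference -0.45 ± 0.17, adjusted p = 0.590). Again every old mouse lay below every young one, and the same protein is encoded by Atp5g1 and Atp5g2, of which Atp5g2 differed by -0.31 without overlap.

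Cox5b, a nuclear subunit of cytochrome c oxidase, was at 8.77, 8.40, 8.29, 8.54 and 8.70 in old cancer-free mice, against 8.99, 9.37 and 8.86 in young cancer-free mice (difference -0.54 ± 0.22, adjusted p = 0.630). Its second, much dimmer probe gave 0.01, so the 2 probes disagreed in sign. Cox8a, the widely expressed isoform of a small subunit of complex IV, was at 10.41, 10.45, 10.61, 10.20 and 10.13 in old cancer-free mice, against 10.77, 10.64 and 10.82 in young cancer-free mice (difference -0.38 ± 0.16, adjusted p = 0.637). Ndufb8, an accessory subunit of complex I whose protein is often used as a readout of assembled complex I, was at 6.34, 6.69, 6.65, 6.25 and 6.19 in old cancer-free mice, against 6.89, 6.86 and 7.02 in young cancer-free mice (difference -0.50 ± 0.22, adjusted p = 0.648). In these 3 genes too the groups did not overlap, although for Cox8a the highest old mouse and the lowest young one were close.

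The main subunit genes of each complex, also those outside the catalytic core, gave smaller or less certain values. In complex I, the differences were -0.03 for Ndufs1 and -0.64 ± 0.37 for Ndufs8, which hold iron-sulfur clusters, -0.26 for Ndufs3 and Ndufs7, -0.21 for the NADH-binding Ndufv1 and 0.02 for its partner Ndufv2. In complex II, which is also an enzyme of the citric acid cycle, Sdha differed by -0.49 ± 0.25, Sdhb by -0.10, and the membrane anchors Sdhc and Sdhd by -0.59 ± 0.43 and 0.20 ± 0.47. In complex III, the core protein Uqcrc1 differed by -0.50 ± 0.23, Uqcrc2 by -0.20, the Rieske protein Uqcrfs1 by -0.16 and cytochrome c1 (Cyc1) by -0.27. None of these had an unadjusted p under 0.05. In complex IV, whose catalytic core is mitochondrially encoded, the nuclear subunits Cox4i1 and Cox5a differed by -0.40 and -0.46. In the catalytic head of ATP synthase, the alpha, beta, gamma, delta and epsilon genes Atp5a1, Atp5b, Atp5c1, Atp5d and Atp5e differed by -0.36, -0.20, -0.41, -0.32 and -0.33, so that all 5 had the same sign.

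The number of genes at an unadjusted p under 0.05 depended on the scaling and on single arrays. It was 1 in place of 5 under cyclic loess and under median centring. It was 3 without old cancer-free replicate 5, and also without young cancer-free replicate 1 or 2. Leaving out old cancer-free replicate 4 or 5 gave medians of -0.21 and -0.18, the values nearest to 0 among the leave-one-out fits, and 71 of 83 differences stayed negative in both.

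**Figure D3:**
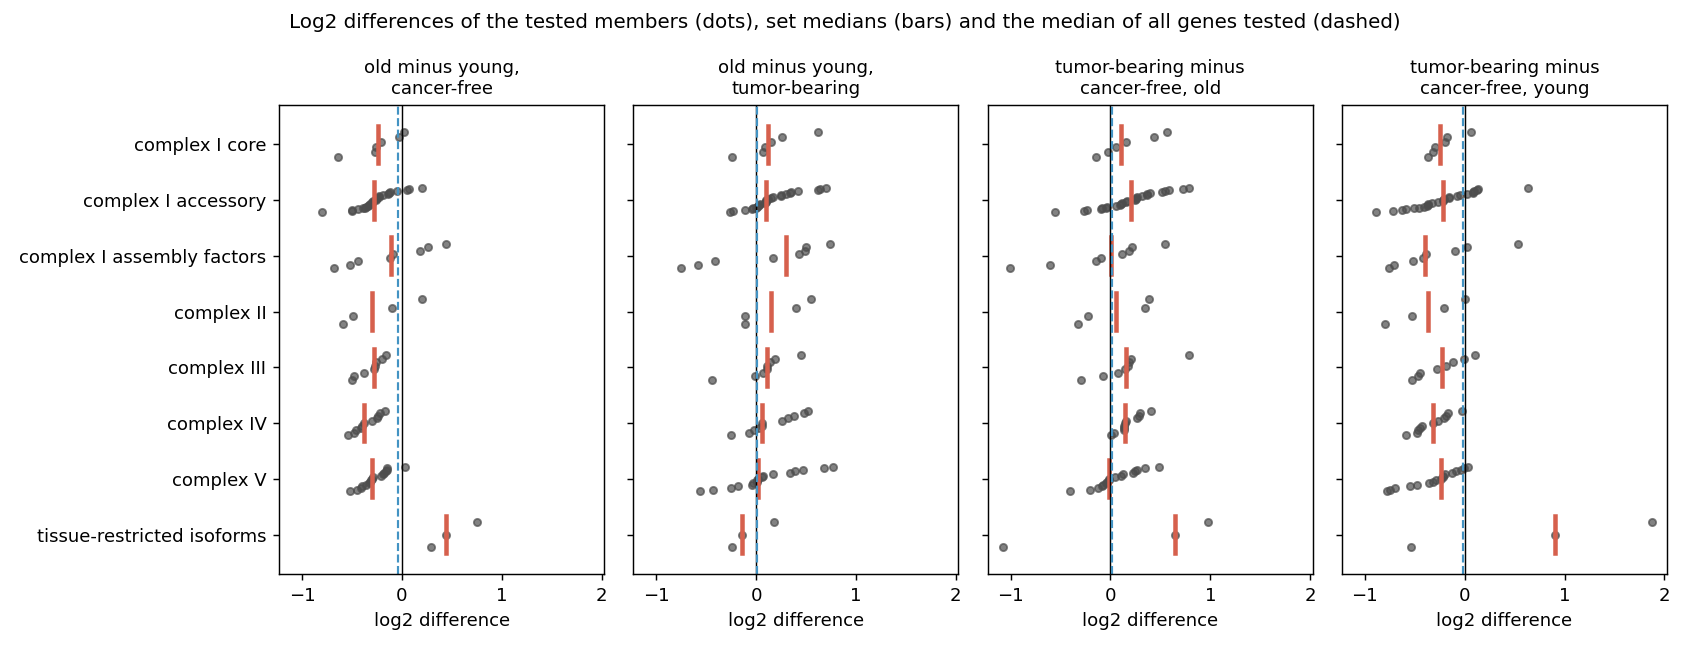
Log2 differences of the 83 tested genes (dots, x axis) by set (rows) in the 4 comparisons, with the median of each set as a thick bar and the median of all 13805 genes as a dashed line. For age in cancer-free mice all 11 dots of complex IV lie left of 0, and for tumor in old mice none of them do.

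The second comparison is of age among tumor-bearing hosts. Between old (n = 3) and young (n = 3) tumor-bearing mice the genes as a set had a small positive median of 0.10 (0.004 over all genes), with 24 of 83 negative (28.9%, against 49.5% of all genes). This sign rested on young tumor-bearing replicate 1, without which the median was -0.10 and 55 were negative. In limma 0 of the 83 genes were called (0% of all genes). At an unadjusted p under 0.05, 1 was lower and 2 were higher (1.2% and 2.41%, against 6.35% and 3.75% of all genes), and without that array 3 were lower and 1 was higher. The groups did not overlap for 3 lower genes (3.61%, against 7.1%) and 4 higher ones (4.82%, against 5.94%), shares below those of all genes.

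The 3 genes at that threshold belong to complex V and complex I. Atp5pb, which encodes subunit b of the peripheral stalk of ATP synthase, was at 7.97, 8.05 and 7.78 in old tumor-bearing mice, against 8.50, 8.21 and 8.77 in young tumor-bearing mice. The difference was -0.56 ± 0.20 (adjusted p = 0.362 in limma) and was also -0.56 without the outlying young array. Ndufs3, a core subunit of complex I, was at 6.01, 5.89 and 5.72 in old tumor-bearing mice, against 5.0, 5.54 and 5.23 in young tumor-bearing mice (difference 0.62 ± 0.22, adjusted p = 0.366). Without the outlying young array the Ndufs3 difference was 0.49, at an unadjusted p of 0.057 in limma. Both genes were without overlap. The assembly factor Ndufaf7, a methyltransferase acting on complex I, was at 5.11, 6.16 and 5.23 in old tumor-bearing mice, against 5.17, 4.45 and 4.67 in young tumor-bearing mice, and overlapped (difference 0.74 ± 0.30, adjusted p = 0.422). Its difference was 0.94 without the outlying array.

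Atp5a1, the alpha subunit, and Atp5g1, another c subunit gene, were the other 2 genes that lay lower in old tumor-bearing mice without overlap. For Atp5a1 the levels were 9.53, 9.18 and 9.70 in old tumor-bearing mice, against 9.82, 9.91 and 9.97 in young tumor-bearing mice, a difference of -0.43 ± 0.20 (adjusted p = 0.498). Atp5g1 was dim, at 4.44, 4.22 and 4.43 in old tumor-bearing mice, against 4.48, 4.47 and 4.68 in young tumor-bearing mice. Its difference was -0.18, and the highest old mouse and the lowest young one were close. The other non-overlapping genes that lay higher were Cox7a2l, Ndufa1 and Ndufa8. Uqcrfs1 (-0.45), Ndufaf4 (-0.75) and Atp5g3 (-0.25) followed among the negative differences, and Ndufb10 (0.70), Atp5c1 (0.77) and Ndufa7 (0.62) among the positive ones, each at an unadjusted p above 0.05. Without young tumor-bearing replicate 1, the differences were 0.16 for Ndufb10, 0.39 for Atp5c1, 0.15 for Ndufa7, -0.39 for Ndufaf4 and -0.43 for Atp5g3. That of Atp5e, with all arrays 0.68, was -0.11 without it.

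The third comparison is of tumor-bearing with cancer-free hosts among old mice. Old tumor-bearing mice (n = 3) had slightly higher mean levels than old cancer-free mice (n = 5) for most subunits outside ATP synthase, and no gene passed the test. The median difference over the 83 genes was 0.14 (0.01 over all genes), and 27 were negative (32.5%, against 48.7% of all genes). In limma 0 genes were called (0% of all genes). At an unadjusted p under 0.05, 8 were higher (9.64%, against 4.2% of all genes) and 1 was lower (1.2%, against 5.56%). The groups did not overlap for 4 higher genes (4.82%, against 3.11%) and 1 lower gene (1.2%, against 3.04%).

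Complex IV had 0 negative differences among 11 (median 0.14), and the accessory genes of complex I had 7 negative among 26 (median 0.21). Complex V was centered near 0, with 9 negative of 17 and a median of -0.01 that was 0.002 under cyclic loess and 0.05 under median centring. In complex III 2 of 8 were negative (median 0.16), in the complex I core 2 of 6 (median 0.11) and in complex II 2 of 4 (median 0.06). The old cancer-free mice are the same 5 animals as in the first comparison. The median over the 83 genes was 0.07 without old cancer-free replicate 5, 0.09 without replicate 4 and 0.09 without old tumor-bearing replicate 3.

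Uqcrc1, a core protein of complex III that faces the matrix, was at 8.30, 8.22 and 8.09 in old tumor-bearing mice, against 7.17, 7.16, 8.02, 7.16 and 7.56 in old cancer-free mice. The groups did not overlap, although replicate 3 of the old cancer-free mice came close, and the difference was 0.79 ± 0.23 (1.73-fold, adjusted p = 0.334 in limma). Ndufa11 was at 9.33, 9.96 and 9.16 in old tumor-bearing mice, against 8.39, 9.29, 8.95, 8.68 and 8.48 in old cancer-free mice, with overlap (difference 0.73 ± 0.23, adjusted p = 0.371). Ndufs3 was at 6.01, 5.89 and 5.72 in old tumor-bearing mice, against 5.12, 5.48, 5.58, 5.23 and 5.11 in old cancer-free mice, without overlap (difference 0.57 ± 0.19, adjusted p = 0.412). Ndufb11, an accessory subunit encoded on the X chromosome, was at 6.86, 6.67 and 6.76 in old tumor-bearing mice, against 6.55, 6.27, 6.02, 5.39 and 5.64 in old cancer-free mice, again without overlap (difference 0.79 ± 0.29, adjusted p = 0.430).

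The other higher genes at this threshold were Ndufa8 (0.58 ± 0.25), Ndufb9 (0.55 ± 0.24), Cox4i2 (0.65 ± 0.28) and Cox7a2l (0.41 ± 0.18), with adjusted p from 0.485 to 0.495. Cox7a2l, which takes part in joining complexes III and IV into supercomplexes, was at 8.21, 8.03 and 8.27 in old tumor-bearing mice, against 7.77, 7.93, 7.90, 7.96 and 7.24 in old cancer-free mice. The single gene on the lower side was Atp5pb, at 7.97, 8.05 and 7.78 in old tumor-bearing mice, against 8.45, 8.65, 8.33, 8.12 and 8.11 in old cancer-free mice (difference -0.40 ± 0.17, adjusted p = 0.486). Its groups did not overlap, and the old tumor-bearing mice thus held the 3 lowest Atp5pb levels of all 14 arrays. Ndufaf6 (-1.0), Cox6b2 (-1.08), Ndufaf2 (-0.61) and Uqcrfs1 (-0.29) followed among the negative differences, at unadjusted p above 0.05. Without old tumor-bearing replicate 2, 4 genes were higher at the threshold in place of 8.

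**Figure D4:**
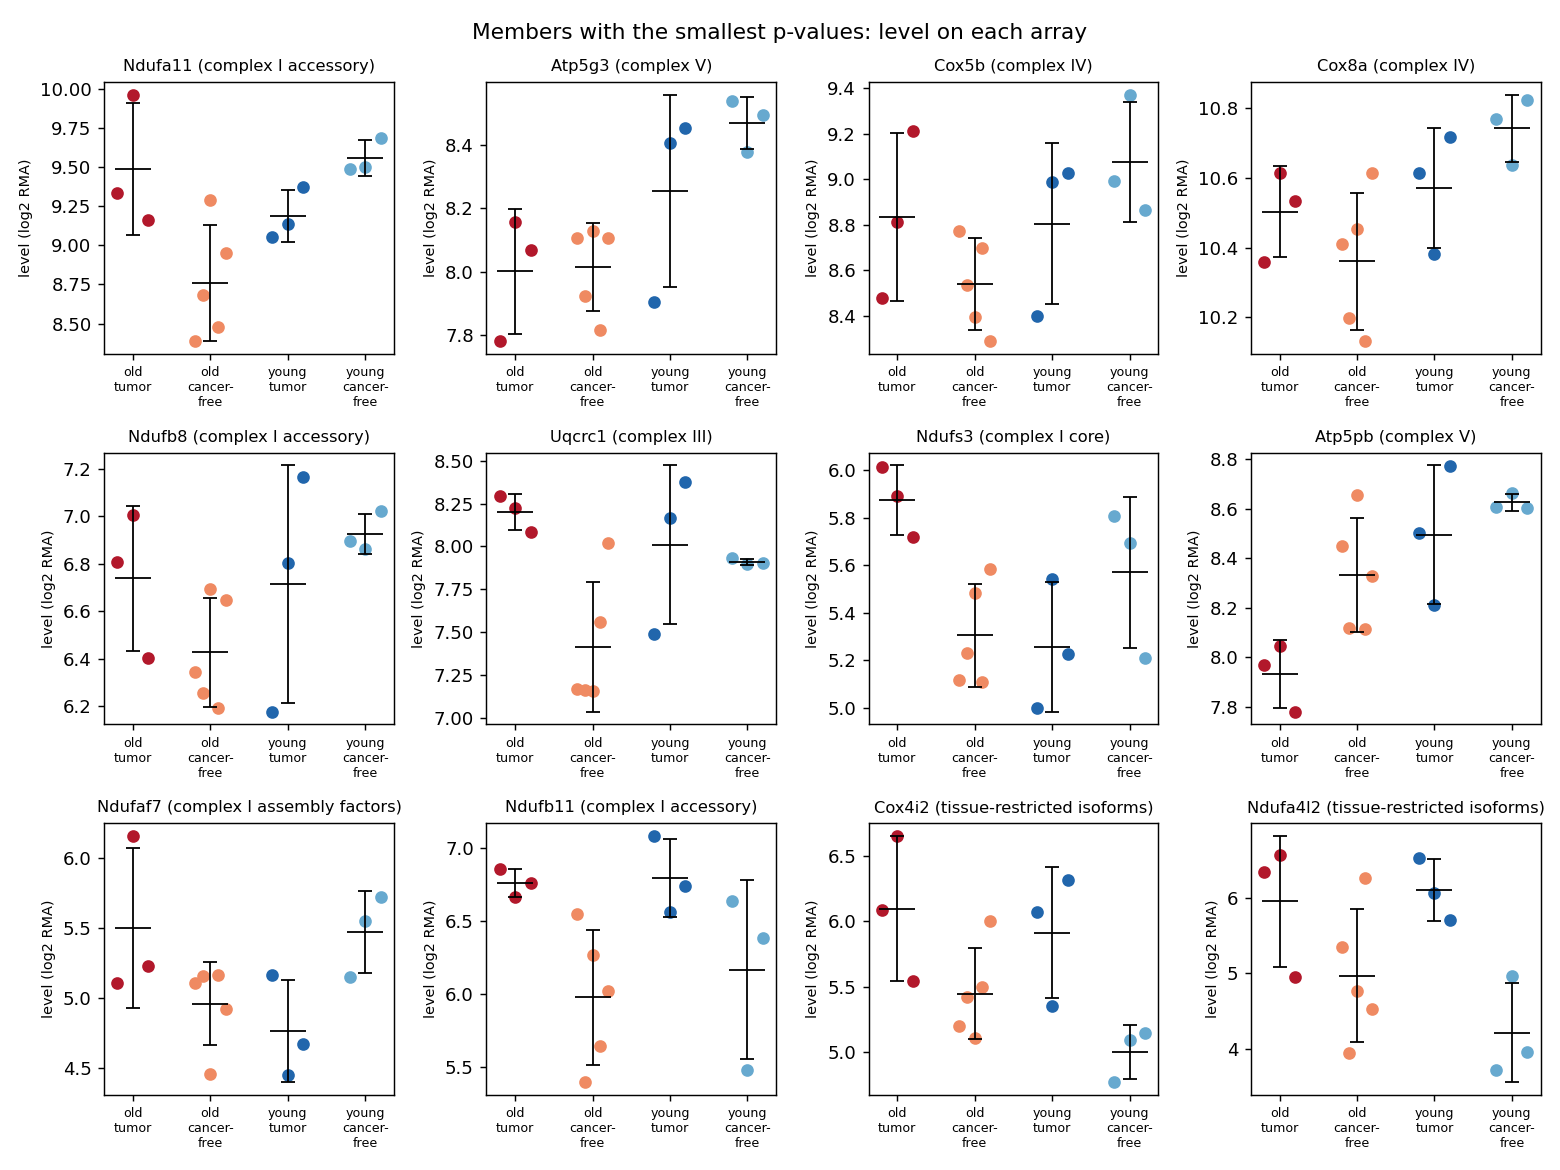
Log2 level (y axis) of 12 genes chosen among those with an unadjusted p under 0.05 in limma in at least 1 comparison. There is 1 point per array by group (x axis), with bars for the mean ± SD. Other genes under that threshold, such as Atp5a1 and Ndufa8, are not shown. Uqcrc1 in old tumor-bearing mice lies at 8.09 to 8.30, above all old cancer-free mice, while Atp5pb lies lowest there, at 7.78 to 8.05.

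The fourth comparison is of tumor-bearing with cancer-free hosts among young mice (n = 3 each). Taken over all arrays, 68 of the 83 differences were negative (81.9%, against 52.8% of all genes) with a median of -0.27 (-0.02 over all genes). This rested on 1 mouse: without young tumor-bearing replicate 1 the median was -0.03 and 44 of 83 were negative. With all arrays, 66.1% of all genes at a level of 6 to 8 were negative, beside 22 of 26 of the machinery. At 8 to 10 it was 67.6%, beside 24 of 29. At 10 and over it was 65.3%, beside 11 of 11, and 45.8% below 6, beside 11 of 17. Complex IV had 11 of 11 negative with all arrays and 7 of 11 without that mouse, and the accessory genes of complex I had 19 of 26 negative with all arrays and 11 without it. In limma 0 genes were called (0% of all genes), and at an unadjusted p under 0.05, 1 was lower and 2 were higher (1.2% and 2.41%, against 3.3% and 2.1% of all genes), and without that array 2 were lower and 2 higher. The groups did not overlap for 8 lower genes (9.64%, against 7.37%) and 2 higher genes (2.41%, against 5.56%).

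In the outlying mouse the low levels reached far in some genes. Atp5e, the epsilon subunit of the ATP synthase head, was at 9.44, 11.88 and 11.74 in young tumor-bearing mice, against 11.80, 11.77 and 11.81 in young cancer-free mice. Ndufa4, first assigned to complex I and now placed in complex IV, was at 9.06, 10.64 and 10.80 in young tumor-bearing mice, against 10.66, 10.64 and 10.61 in young cancer-free mice. For Ndufa7 the levels were 6.08, 7.45 and 7.52 in young tumor-bearing mice, against 7.75, 7.59 and 7.85 in young cancer-free mice. In Atp5e and Ndufa4 the other 2 tumor-bearing mice lay close to the cancer-free ones, and in Ndufa7 they lay just below them.

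The gene with the smallest p on the lower side was Ndufaf7, at 5.17, 4.45 and 4.67 in young tumor-bearing mice, against 5.15, 5.55 and 5.72 in young cancer-free mice. Its difference was -0.71 ± 0.30 (adjusted p = 0.886 in limma) and was -0.91 without the outlying array, in which Ndufaf7 was not low. Atp5j2 (-0.55), Atp5h (-0.75), Ndufa2 (-0.89) and Atp5g2 (-0.32) followed at unadjusted p above 0.05. Of these, Atp5h and Ndufa2 rested on the outlying array, without which they differed by -0.26 and -0.20. On the higher side, after the isoforms Ndufa4l2 and Cox4i2, came Ndufb11 (0.63), Ndufaf4 (0.54) and Ndufc1 (0.13), and without that array Ndufaf4 differed by 0.17 and Ndufc1 by 0.22.

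**Figure D5:**
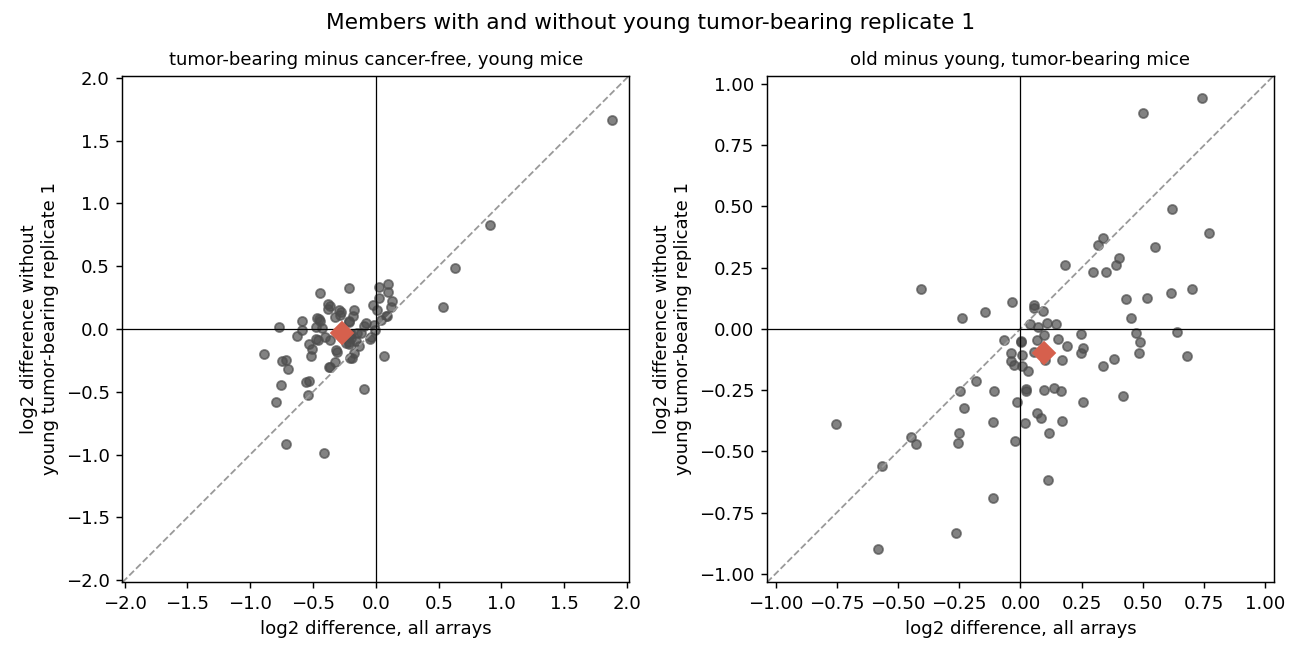
Log2 differences of the 83 tested genes with all arrays (x axis) and without young tumor-bearing replicate 1 (y axis), for tumor in young mice (left) and age in tumor-bearing mice (right), with the medians as a diamond and the dashed line marking equal values. The median is -0.27 with all arrays and -0.03 without that array on the left, and 0.10 and -0.10 on the right.

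The difference between the 2 tumor effects, old minus young, was tested as an interaction. It was positive for 71 of the 83 genes and negative for 12 (14.5%, against 47.6% of all genes), with a median of 0.34 (0.02 over all genes), and without young tumor-bearing replicate 1 the median was 0.15 with 23 negative. In limma 0 genes were called (0% of all genes, smallest adjusted p among the 83 of 0.976). At an unadjusted p under 0.05, 5 genes had a positive difference (6.02%, against 2.57% of all genes) and 0 a negative one (1.85%). The number positive was 3 without young tumor-bearing replicate 1, and also 3 under cyclic loess and under median centring. For Ndufa11 the tumor effects were 0.73 in old mice and -0.37 in young mice, an interaction of 1.10 ± 0.34, which was 1.03 without the outlying array. For Ndufaf7 they were 0.54 and -0.71 (interaction 1.25 ± 0.40) and for Ndufs3 0.57 and -0.31 (0.88 ± 0.29). Cox7a2l (0.62 ± 0.27) and Ndufa7 (1.11 ± 0.51) were the other 2, and that of Ndufa7 was 0.64 without the outlying array.

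The isoforms known mainly from single tissues had values of their own. Ndufa4l2 encodes a paralog of Ndufa4 that is known to be induced by hypoxia and to lower respiratory activity. Its level was 6.33, 6.56 and 4.96 in old tumor-bearing mice, against 5.34, 4.76, 4.53, 3.95 and 6.26 in old cancer-free mice, with overlap (0.98 on average). In young mice it was 6.52, 6.06 and 5.70 in tumor-bearing hosts, against 3.73, 4.96 and 3.96 in cancer-free hosts. There the groups did not overlap, and the difference was 1.88 ± 0.54 (3.68-fold, adjusted p = 0.886 in limma), or 1.67 without the outlying array.

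Cox4i2 encodes the second isoform of subunit 4 of cytochrome c oxidase, known from lung and also linked to hypoxia. It was at 6.08, 6.65 and 5.55 in old tumor-bearing mice, against 5.20, 5.11, 6.0, 5.42 and 5.50 in old cancer-free mice. In young mice it was at 6.07, 5.35 and 6.31 in tumor-bearing hosts, against 4.77, 5.09 and 5.15 in cancer-free hosts (difference 0.91 ± 0.32, adjusted p = 0.886; 0.83 without the outlying array). Averaged over both ages the tumor differences were 1.43 ± 0.37 for Ndufa4l2 and 0.78 ± 0.21 for Cox4i2, the smallest p-values of the 83 genes in that comparison (adjusted p = 0.317 and 0.322). Neither passed the threshold. For age in cancer-free mice both had positive differences, 0.75 ± 0.49 and 0.44 ± 0.28, as had the testis isoform Cox6b2 (0.30 ± 0.55). Cox7a1, Cox7b2, Cox8b and Cox8c, isoforms known from muscle or testis, did not pass the filter: their group means lay between 1.47 and 3.80, where the median of the whole table is 3.88.

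Averaged over both states, age gave 3 genes at an unadjusted p under 0.05, all lower in old mice and all of ATP synthase (3.61%, against 8.97% of all genes), and 0 higher (against 4.44%). They were Atp5pb (-0.43 ± 0.13, adjusted p = 0.197), Atp5a1 (-0.39 ± 0.13, adjusted p = 0.238) and Atp5g3 (-0.35 ± 0.13, adjusted p = 0.252). None of the 83 was among the 12 genes called over the whole array in limma (0.0869%), and pooled over states the ages did not overlap for 0 lower and 0 higher genes (against 0.398% and 0.13% of all genes). Negative differences numbered 57 of 83 (68.7%, against 52% of all genes), with a median of -0.07, which was 0.03 under cyclic loess, 0.02 under median centring and -0.18 without young tumor-bearing replicate 1. Of all genes at a level of 6 to 8, 67.1% were negative (median -0.13), beside 18 of 26 of the machinery (median -0.07). At 8 to 10 it was 68.9% (median -0.11), beside 22 of 29 (median -0.07). At 10 and over it was 53.4%, beside 9 of 11, and 44.4% below 6, beside 8 of 17. For tumor averaged over both ages, 0 of the 83 genes were called (0% of all genes), 4 were higher at an unadjusted p under 0.05 (4.82%, against 4.23%) and 1 lower (1.2%, against 6.01%). Negative differences numbered 55 of 83 (66.3%, against 51.1%), with a median of -0.09 that was 0.06 without young tumor-bearing replicate 1. Under cyclic loess 47 were negative (median -0.03), against 49.3% of all genes, and under median centring 43 (median -0.007), against 39%. Of all genes at a level of 6 to 8, 67.4% were negative, beside 17 of 26 of the machinery. At 8 to 10 it was 66.8%, beside 19 of 29. At 10 and over it was 64.8%, beside 9 of 11, and 42.9% below 6, beside 10 of 17. Pooled over ages the groups did not overlap for 0 lower and 0 higher genes (against 0.145% and 0.123% of all genes). The 4 genes higher for tumor at an unadjusted p under 0.05 were Ndufa4l2, Cox4i2, Ndufb11 (0.71 ± 0.22) and Uqcrc1 (0.44 ± 0.17). The lower one was the assembly factor Ndufaf2 (-0.56 ± 0.25).

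The genes differed in how steady they were. Over all 14 arrays the smallest SDs were those of Atp5b, the catalytic beta subunit, and Atp5l, subunit g, both 0.16, and of Uqcrc2 (0.17). The largest were those of Ndufaf6 (0.80), Cox6b2 (0.89) and Ndufa4l2 (1.0). Of 9 genes with 2 probes, the probes had the same sign for 6 in age among cancer-free mice and for 6 in tumor among old mice. The same held for 5 in age among tumor-bearing mice and for 7 in tumor among young mice. The 3 that disagreed for age in cancer-free mice were Atp5h, Cox5b and Cox7b, each with a second probe at 5.30 or lower. For age in tumor-bearing mice Atp5d, Atp5g2, Atp5h and Cox5b disagreed. Several subunit genes have processed copies in the mouse genome, so a probe may read RNA of a copy as well, and probes annotated to several genes were not used.

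Of 4 other mitochondrial gene lists, 3 had negative medians for age in cancer-free mice, and 0 of their genes were called. Over all genes the median was -0.04, 55.5% were negative and 5.17% were lower at an unadjusted p under 0.05. Mitochondrial ribosomal proteins, which translate the mitochondrially encoded subunits, had a median of -0.25 with 55 of 70 negative and 5 lower at an unadjusted p under 0.05, among them Mrpl51 (-0.78), Mrpl47 (-0.86) and Mrpl36 (-0.97). Enzymes of the citric acid cycle had a median of -0.23, with 12 of 12 negative and 2 lower, fumarase Fh1 (-0.53) and Suclg2 (-0.58). Electron carriers and assembly factors outside the symbol rule had a median of -0.14, with 29 of 39 negative and 4 lower, such as cytochrome c (Cycs, -0.45), the ubiquinone enzyme Coq7 (-0.60) and Acad9 (-0.44). Regulators of mitochondrial biogenesis had a median of 0.04 with 6 of 15 negative. Of these, Nrf1 and Gabpb1, a partner of the ETS factor GABP, differed by -0.47 and -0.48, and Polg2, a subunit of the mitochondrial DNA polymerase, by 2.57 (adjusted p = 0.438). For tumor in young mice the mitochondrial ribosomal proteins had a median of -0.34 with 56 of 70 negative, and of -0.10 with 40 of 70 negative without young tumor-bearing replicate 1.

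Markers of other cells also had differences in the 4 comparisons between pairs of groups, in which none of them was called in limma. Age averaged over both states did give called markers, all lower in old mice. They were Kif23, Hells and Nuf2 of dividing cells, Itgam of monocytes and macrophages, and Pecam1 of endothelial cells. Their adjusted p in limma lay between 0.031 and 0.0497. The other endothelial markers tested, Cdh5, Kdr and Vwf, did not follow Pecam1 (-0.92), with differences of -0.02, 0.02 and 0.19. For age in cancer-free mice, markers of dividing cells had 11 of 11 negative differences (median -1.10), with mean levels of 5.27 to 6.40 in old mice, against 6.70 to 7.03 in young mice. Markers of plasmacytoid dendritic cells had 12 of 12 negative (median -1.08), at 5.97 to 7.50 in old mice, against 7.20 to 8.25 in young mice. Among these 12 was Cox6a2, the cytochrome c oxidase gene left out of the set. For age averaged over both states it differed by -1.57 and was not called (adjusted p = 0.068 in limma). Markers of monocytes and macrophages had 8 of 9 negative (median -0.60), at 5.83 to 6.78 in old mice, against 6.48 to 6.91 in young mice. Markers of natural killer cells had 7 of 8 negative (median -0.45), at 7.63 to 8.29 in old mice, against 8.22 to 8.60 in young mice. They averaged 7.46 in old tumor-bearing mice, against 7.89 in old cancer-free mice, and 8.05 in young tumor-bearing mice, against 8.45 in young cancer-free mice. Their tumor difference had 7 of 8 negative at both ages, with medians of -0.43 in old mice and of -0.45 in young mice (-0.20 without young tumor-bearing replicate 1). Among tumor-bearing mice the markers of dividing cells and plasmacytoid dendritic cells also had negative differences (11 of 11 and 12 of 12, medians -1.67 and -1.01) and T cell markers mostly positive ones (1 of 9 negative, median 1.17, or 0.71 without the outlying array), where the genes of the machinery had a median of 0.10, or -0.10 without the outlying array. For tumor in young mice, T cell markers had 8 of 9 negative (median -0.84), at 7.06 to 7.90 in tumor-bearing mice, against 7.80 to 8.59 in cancer-free mice. For tumor in old mice, plasma cell markers had 0 of 6 negative (median 0.39), at 9.72 to 10.11 in tumor-bearing mice, against 9.18 to 9.82 in cancer-free mice, and markers of dividing cells 10 of 11 negative (median -0.58). The part of these cells in the values of the oxidative phosphorylation genes was not tested.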

How the data were processed

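Sorted Sca1+ and cKit- bone marrow cells of 14 mice were measured on 1-colour arrays, after Nugen Ovation Pico amplification per the labels' protocols. The deposited values are log2 intensities that, per the submitters' processing notes, the authors made by RMA; these notes name oligo 1.32.0 and R 3.2.0. No source used here states scan dates or the set of arrays normalised jointly. Of 41345 probes, 23521 are annotated to 1 gene, 1814 to several and 16010 to none. Each of 22180 genes was represented by its brightest probe. A gene was tested if it exceeded the table's median (3.88) on at least 3 arrays. Group means were fitted over all 14 arrays with limma 3.58.1 under R 4.3.3, with Benjamini-Hochberg adjustment over 13805 genes and a threshold of 0.05, and the procedure was tested on simulated data. The labels call the samples biological replicates, and p-values measure the spread between these arrays. Genes named in the text are the core subunits and tissue-restricted isoforms, the 5 with the smallest p in each direction of each comparison, and those with the smallest and largest SD. From each of the other mitochondrial lists, up to 3 genes with the smallest p for age in cancer-free mice are named. Cell markers are named where they were called or as a check of the sort. The members and gene lists were chosen with earlier results of these data known. Promoters are RefSeq's, on GRCm38.p6, and motifs were matched exactly. Gene symbols are those of the platform annotation and can be old.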

Additional observations from a re-analysis of the deposited data

Results flagged for a closer look

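Dixon's test was applied to each of the 83 genes in the old cancer-free group of 5, where chance alone flags about 1 group in 20, and 3 genes had 1 mouse apart from the other 4. Atp5l, subunit g of ATP synthase, was at 11.35 in old cancer-free replicate 5, against 11.61 to 11.71 in the other mice of the group. Cox7a2l, the supercomplex factor, was at 7.24 in the same replicate, against 7.77 to 7.96 in the others. Ndufv1, the NADH-binding subunit of complex I, was at 6.32 in replicate 4, against 6.63 to 6.75 in the others. In each case the outlying mouse was low, and these are the 2 replicates with the low means over all subunit genes. However, 3 of 83 genes is not above the chance rate of about 1 in 20, so no pattern is read from them.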

How the results depend on the processing

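With 3 to 5 arrays a group, no gene of the machinery passed the threshold under any alternative: of 8400 values for 49 named genes, 7904 kept their sign and 0 passed. For age in cancer-free mice the median (-0.26) was -0.15 under cyclic loess or median centring and -0.33 to -0.18 when each array was left out in turn; the number lower at an unadjusted p under 0.05 (5) was 1 under either scaling, 13 with array weights, 9 with only the groups compared and 3 to 7 by leave-one-out. For tumor in old mice the number higher (8) was 5 with only the groups compared and 4 to 10 by leave-one-out. The median for tumor in young mice (-0.27) was -0.35 to -0.032 by leave-one-out. For age in tumor-bearing mice it was -0.10 to 0.24, for the interaction 0.15 to 0.45, for age averaged over both states -0.18 to -0.01 and for tumor averaged over both ages -0.15 to 0.06. In fits chosen after seeing the data, leaving out young tumor-bearing replicate 1 and old tumor-bearing replicate 3 gave -0.032 for tumor in young mice, 0.11 for the interaction and -0.10 for age in tumor-bearing mice; with the mean correlation of an array as covariate the values were 0.0018 for tumor in young mice and 0.16 for tumor averaged over both ages. Same-numbered mice did not deviate together (correlations of -0.08 to 0.09 over 18 pairs), so the numbers were not taken as pairs; with the replicate number as a block the medians were -0.11 for age in cancer-free mice, -0.03 for tumor in old mice and -0.16 for tumor averaged over both ages. Over the whole array the 12 genes called for age averaged over both states became 2 under loess, 1 under centring, 57 with array weights, 0 with the block, 43 without the 2 least correlated arrays and 0 to 74 by leave-one-out, and the 0 for age in tumor-bearing mice became 7 with the mean of probes and 6 without the 2 least correlated arrays. The cause of these shifts was not tested.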
